A study of Mus musculus with 5 samples.

Results

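The wild-type baseline of the 4-week mammary epithelium consists of 3 of the 5 arrays of this mouse series. They are the arrays labelled Mmp14(f/f) without MMTV-Cre, and they are called wild type 1, 2 and 3 here after the replicate numbers of the labels. The mice were of a congenic FVB/NJ background, and both alleles of Mmp14 were floxed but not recombined by Cre, so "wild type" stands for intact floxed alleles. Their littermates with MMTV-Cre, on the other 2 arrays, enter no value below. Epithelial aggregates were taken from inguinal glands from which the lymph node had been left out, after collagenase digestion and centrifugation against stroma, and 10 ng of RNA was amplified per array. The labels call the arrays biological replicates but do not say whether an array holds 1 mouse or a pool. SDs therefore describe the spread between these 3 samples, and no test was run within this single group.

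At this age the mouse gland begins its pubertal growth. Ducts are built of an inner luminal layer, which contains hormone-sensing cells and progenitors of the milk-producing alveoli, and an outer basal layer of contractile myoepithelial cells. The ducts grow into a fat pad that holds fibroblasts, adipocytes, vessels and immune cells, and a collagenase preparation of epithelium can retain some of each.

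Signals are log2 units per probe set, so a difference of 1 unit is 2-fold. Genes with 1 symbol per probe set, 22180 in all, were ordered by their mean over the 3 arrays. A probe set's signal depends on its own probes as well as on the RNA, so this is an order of signal and not of transcript number. The files hold no detection calls. As a stand-in, the 95th percentile of 1390 olfactory and vomeronasal receptor genes, 4.48, was used as a reference limit, under which a signal was not told from background. Of all genes, 10921 (49.2%) had a mean above it, and 10594 were above it on each of the 3 arrays. The limit is no clean boundary. The probe set named for the vomeronasal receptor gene Vmn1r233 read 11.44, 11.27 and 11.44, rank 12 of all genes, and 8 of 49 measured genes largely restricted to other organs had means above 4.48. Among these were Fgb, a fibrinogen chain of the liver, at 9.29 ± 0.30, and Gast, the stomach hormone gastrin, at 7.62 ± 0.21. Mean ± SD refers to n = 3 arrays throughout.

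The 3 arrays were alike over most genes. Pearson correlations, taken over 22180 genes that are no independent replicates, were 0.995 between wild type 1 and 2, 0.994 between 1 and 3 and 0.994 between 2 and 3. The median absolute difference between 2 arrays lay between 0.058 and 0.065. Only 60 genes were at least 2-fold apart between wild type 1 and 2, against 86 between 1 and 3 and 96 between 2 and 3. The array numbers in the labels are consecutive for wild type 1 and 2 and lie further on for wild type 3. What these numbers stand for is not given, so their part in the differences was not tested. Many values were exactly equal to 6 decimals: at least 2 arrays shared their value in 9749 genes (44.0%), and all 3 did in 2837 (12.8%), which lowers their SD. The SD over arrays had a median of 0.063 over all genes and of 0.102 over the 12431 genes with 3 different values. A gene whose highest value is tied has no strictly highest array. Ties therefore lower the shares of all genes strictly highest on wild type 1, 2 and 3, which were 21.4%, 24.4% and 26.4%. Part of a list's excess over these shares can come from fewer ties.

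The highest signals came from the translation machinery, mitochondrial transcripts and structural genes of simple epithelium. Of the 30 genes at the top, 9 encode ribosomal proteins and 5 are encoded by the mitochondrial genome. Rpl41, a small protein of the large ribosomal subunit, ranked 1 at 11.89, 12.02 and 11.91. It was followed by Rn7sk, the RNA that holds the elongation factor P-TEFb inactive, at 11.75 ± 0.12, and by Rplp1, a protein of the ribosomal stalk, at 11.65 ± 0.05. Among the 100 highest genes were 19 of the 79 ribosomal protein genes, 4 of 63 translation factor genes and all 10 measured mitochondrially encoded genes. Cytochrome b (CYTB) read 11.47, 11.26 and 11.45, and ND4, a subunit of respiratory complex I, read 11.38, 11.29 and 11.38. All 10 of these genes were also among the 1000 highest, as were 37 ribosomal protein genes. The top of the scale was compressed, with 11.94 at rank 1, 10.47 at rank 100 and 8.64 at rank 1000.

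Those families were set aside, with histones, actins, tubulins, small RNAs, numbered gene models, antigen receptor segments and olfactory and vomeronasal receptors, among them Vmn1r233. The 20 highest remaining genes joined epithelial genes with genes of every cell. Plet1, a surface glycoprotein, stood at rank 4 and read 11.63, 11.62 and 11.61. S100a6, a calcium-binding protein, read 11.52, 11.43 and 11.52. Krt8 and Krt18, the paired keratins of simple epithelium, read 11.42, 11.43 and 11.43 and 11.30, 11.36 and 11.28, at ranks 10 and 17. Cd24a, a surface marker of mammary epithelium, read 11.40, 11.21 and 11.36. Slpi, a secreted protease inhibitor, was at 11.08 ± 0.03 and Ptn, the growth factor pleiotrophin, at 11.07 ± 0.05. Genes of every cell lay in the same range: the chaperone Hspa8 (11.55 ± 0.08), Tpt1 (11.45 ± 0.07), the actin-severing Dstn (11.21 ± 0.00), the MHC class I light chain B2m (11.20 ± 0.04), Naca (11.15 ± 0.00), the iron store Fth1 (11.10 ± 0.15), the noncoding RNA Malat1 (11.09 ± 0.09), the GTPase Rhoa (11.08 ± 0.02), the myosin light chain Myl12a (10.99 ± 0.03) and Atp5l of ATP synthase (10.96 ± 0.20). Erdr1 stood at 11.10 ± 0.09 and Hmox1, the haem-degrading stress enzyme, at 10.99 ± 0.12. The list of 20 closed with Fabp4, a fatty acid carrier of adipocytes and capillary endothelium, at 10.90, 10.92 and 11.01. None of these 20 genes differed by more than 0.37 between arrays, the range of Atp5l.

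**Figure D1:**
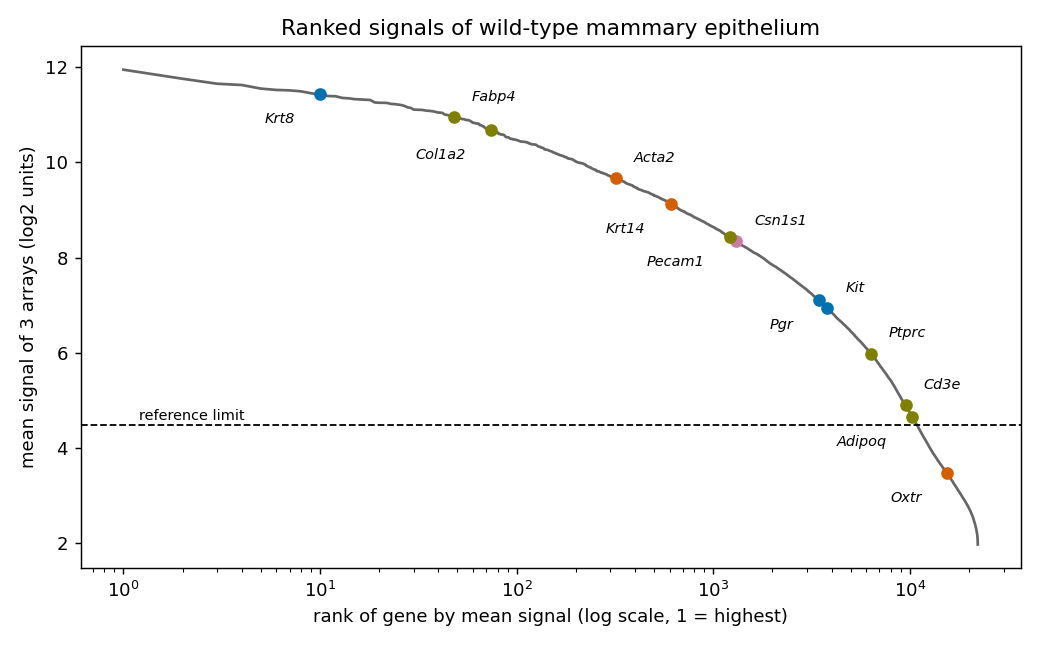
Mean signal of each gene over the 3 wild-type arrays (log2 units) against its rank on a log scale, with named markers as points (blue luminal, orange basal, pink milk, olive other cell types) and the reference limit dashed. Krt8 lies near the top at rank 10, Csn1s1 at rank 1309, and Oxtr below the limit at rank 15415.

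Luminal markers matched the label of mammary epithelium. All 25 measured pan-luminal and epithelial genes lay above the reference limit, against 49.2% of all genes. Their median signal was 8.41, and 10 were among the 1000 highest genes. The adhesion genes Cdh1 (10.38, 10.26 and 10.47) and Epcam (9.98 on each array) and the keratin Krt19 (9.99, 9.90 and 9.99) varied little. The claudins Cldn4 and Cldn7, which seal tight junctions, were at 9.65 ± 0.03 and 8.91 ± 0.02, and Cldn3 at 7.53 ± 0.17. Of the transcription factors of this layer, Ehf read 7.55 ± 0.04, Elf3 6.93 ± 0.02 and Gata3 6.15 ± 0.14. The widest members were Ocln, a tight junction protein, at 8.77, 8.31 and 8.59, and Rab25, a GTPase of epithelial recycling, at 8.24, 7.92 and 7.92. None of the 25 had a range of 1 unit or more, where 169 of all 22180 genes (0.762%) did. On wild type 1, 14 of the 25 were strictly highest, against 21.4% of all genes. The median member lay 0.04 above its 3-array mean there.

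Of 16 measured progenitor markers, 15 exceeded the limit, against 49.2% of all genes. The exception was Sox10, at 4.24. Trf, a planned member, shares its probe set with another symbol and was not analysed here. Lcn2, an iron-scavenging lipocalin, read 10.43, 10.50 and 10.09, and Aldh1a3, a retinoic acid-forming enzyme of luminal progenitors, read 9.79, 9.72 and 9.76. Mfge8, a milk fat globule protein, was at 9.22 ± 0.11, Itga2, a collagen-binding integrin chain, at 9.08 ± 0.13, and lactoferrin (Ltf) at 8.44 ± 0.14. The stem cell factor receptor Kit read 7.11, 6.98 and 6.73, and Elf5, the alveolar transcription factor, 5.42, 5.20 and 5.20. Wild type 1 was strictly highest for 10 of the 16 genes, where it was so for 21.4% of all genes. Cyp24a1, the enzyme that inactivates vitamin D, was the 1 member with a range of 1 unit or more, and read 7.13, 6.14 and 4.87.

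Hormone-sensing genes had a median signal of 7.08, with 12 of 16 above the limit, against 49.2% of all genes. Their means ran from 2.98 to 11.49, the latter that of S100a6, named above. The progesterone receptor Pgr read 7.11, 7.10 and 7.10 and the oestrogen receptor Esr1 5.86, 6.01 and 6.01. Foxa1, which opens chromatin for the oestrogen receptor, was at 7.27 ± 0.18, the coactivator Cited1 at 7.91 ± 0.04 and the secreted peroxidase Gpx3 at 7.74 ± 0.32. Wnt4, a ligand downstream of progesterone in this tissue, was at 5.38 ± 0.06. Cxcl15, a chemokine, varied most in this list, at 8.72, 7.50 and 7.90. The 4 planned members Prlr, Areg, Ly6a and Calca had no probe set with a symbol of their own and were not analysed here.

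Genes of the basal layer were measured as well, with 34 of 35 measured genes above the limit, against 49.2% of all genes. Of the 35, 11 were among the 1000 highest. Krt14, the basal keratin, read 9.17, 9.25 and 8.96. Its partner Krt5 shares its probe set with other symbols and was not analysed here. Smooth muscle actin Acta2 read 9.45, 10.05 and 9.50, the smooth muscle myosin Myh11 8.68, 9.59 and 8.97, the actin-binding Tagln 8.71, 9.32 and 8.77, calponin (Cnn1) 8.06, 8.66 and 8.31, and the myosin light chain Myl9 8.23, 9.04 and 8.59. Wild type 2 was highest for each of these contractile genes. Over the list it was strictly highest for 24 of 35 genes, against 24.4% of all genes, and the median member lay 0.13 above its 3-array mean there. Krt17 (9.23, 9.42 and 8.82), Trp63, the master regulator of basal cells (5.31, 5.71 and 5.20), and Snai2 (7.26, 7.69 and 6.98) were also highest on wild type 2, while Pcp4, a calmodulin-binding peptide, was lowest there (8.17, 7.31 and 7.81). Itgb1 (9.85 ± 0.05) and Itga6 (9.32 ± 0.00), chains of matrix receptors on this layer, hardly varied. The oxytocin receptor Oxtr, which makes myoepithelium contract at milk let-down, was the 1 basal gene under the limit, at 3.50, 3.49 and 3.44. Vascular smooth muscle carries many of the contractile genes too, and the pericyte and vascular smooth muscle genes were strictly highest on wild type 2 for 9 of 11. What each cell type contributed to the contractile signals was not tested.

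**Figure D2:**
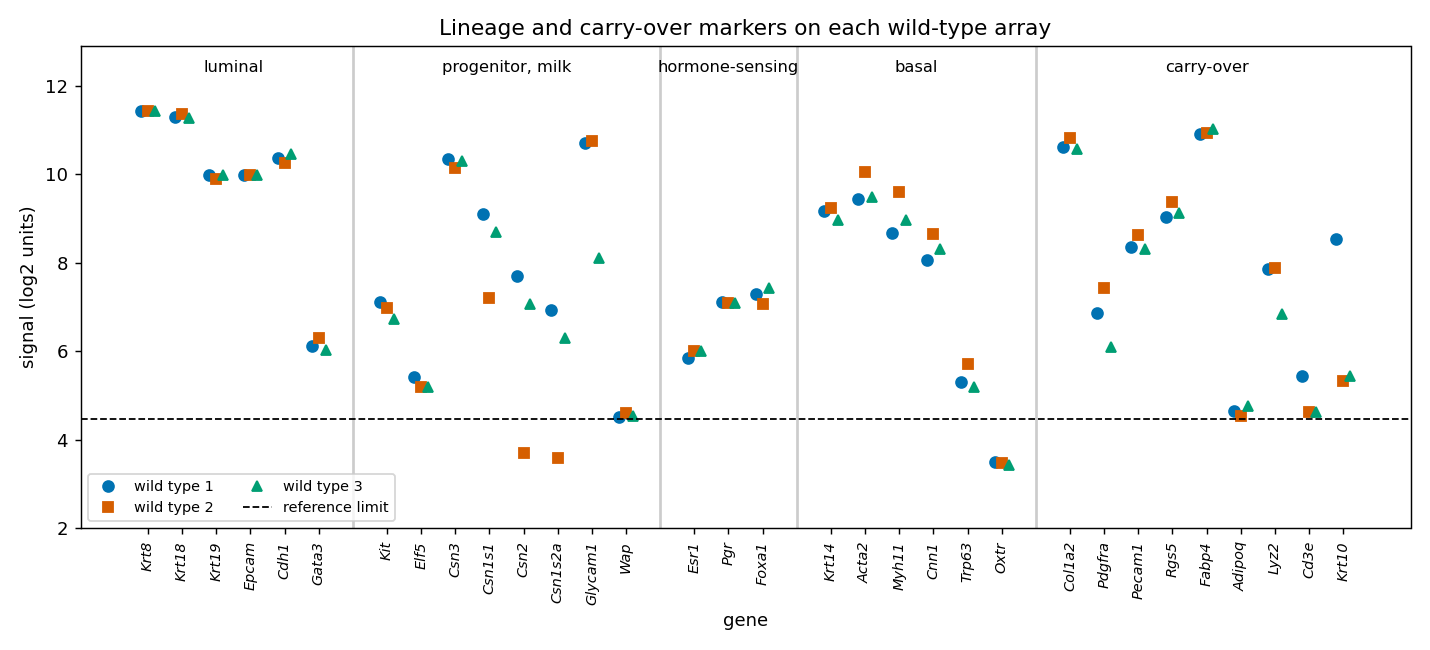
Signal (log2 units) of lineage and carry-over markers on each wild-type array, 1 symbol per array, with the reference limit dashed. Luminal keratins overlap closely, caseins are lower on wild type 2 (Csn2 at 3.70), Glycam1 on wild type 3 (8.10), and Krt10 is high on wild type 1 (8.54).

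Milk genes combined high and low, steady and uneven signals before any pregnancy. Milk proteins are produced in bulk in late pregnancy and lactation under prolactin, which acts through the transcription factor STAT5. Of 21 measured milk and alveolar genes, 15 were above the limit, against 49.2% of all genes. Csn3, kappa-casein, which stabilises casein micelles, read 10.34, 10.15 and 10.30, at rank 140. For 3 of the 5 caseins wild type 2 was far below the other arrays. Csn1s1, an alpha-casein, read 9.10, 7.22 and 8.70, Csn2, beta-casein, 7.69, 3.70 and 7.06, and Csn1s2a 6.93, 3.58 and 6.30. Wild type 2 stood apart downward for these 3 genes, by 1.48, 3.36 and 2.72 units from the nearer array, and its Csn2 and Csn1s2a signals lay under the reference limit. Over all genes, 6 (0.0271%) stood apart downward on wild type 2 by 1 unit or more. Csn1s2b was under the limit on each array (2.55 ± 0.03). Whey acidic protein (Wap) was near the limit at 4.51, 4.60 and 4.53, Lalba, the lactose synthase subunit, read 6.86, 6.37 and 5.99, and Btn1a1, a milk fat globule protein, 6.31, 5.90 and 6.39.

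Glycam1, a secreted mucin found in milk and in venules of lymph nodes, followed another order. It read 10.72, 10.74 and 8.10, so that wild type 3 lay 2.61 units under the nearer array while wild type 2, low in caseins, was at the level of wild type 1. Of 8 measured genes of lymph node vessels and follicles, Glycam1 included, 3 were above the limit, a share near the 49.2% of all genes. Madcam1, an adhesion molecule of such venules, was at 4.22 on each array, Chst4, an enzyme that sulphates venule mucins, at 3.32 ± 0.07, and the B cell receptors Cr2 and Fcer2a at 2.99 ± 0.07 and 2.98 ± 0.00, each under it. Cxcl13, a B cell chemokine, read 6.27, 6.65 and 5.17 and was, like Glycam1, lowest on wild type 3.

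The bases before the start sites of the uneven milk genes are shown because prolactin acts on caseins through promoter elements that bind STAT5. The letters TTCNNNGAA, which read the same on both strands, are in capitals. Sequences are from RefSeq (GRCm38.p6), 5′ to 3′ along the gene, the 250 bases before the annotated start, at chr5:87699426-87699675 (- strand), chr5:87665958-87666207 (+ strand) and chr15:103565082-103565331 (- strand).
Csn2: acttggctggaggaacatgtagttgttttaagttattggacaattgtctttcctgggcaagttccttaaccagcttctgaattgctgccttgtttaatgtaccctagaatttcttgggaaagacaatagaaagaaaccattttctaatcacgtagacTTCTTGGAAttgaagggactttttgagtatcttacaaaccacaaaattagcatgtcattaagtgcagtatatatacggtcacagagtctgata
Csn1s1: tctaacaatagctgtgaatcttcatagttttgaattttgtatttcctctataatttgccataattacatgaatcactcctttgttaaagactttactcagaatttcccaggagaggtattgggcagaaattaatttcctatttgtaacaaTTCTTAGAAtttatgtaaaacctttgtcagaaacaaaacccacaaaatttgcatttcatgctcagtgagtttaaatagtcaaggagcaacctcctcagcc
Glycam1: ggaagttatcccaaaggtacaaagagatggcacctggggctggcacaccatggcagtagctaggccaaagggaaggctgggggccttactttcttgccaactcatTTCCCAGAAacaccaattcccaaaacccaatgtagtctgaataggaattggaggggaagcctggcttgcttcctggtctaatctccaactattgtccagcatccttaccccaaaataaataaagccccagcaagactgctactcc
The match starts 93 bases before the start of Csn2, 100 before that of Csn1s1 and 145 before that of Glycam1. In Csn1s2a it starts at base 21 after the start. In the table's windows of 300 bases, which run from 250 before to 50 after a start, 2726 of 32851 promoters (8.3%) held the letters, and so did 5 of the 18 windows of 16 measured milk and alveolar genes, the fifth being that of Pigr. The motif and these genes were chosen after their values had been seen. A match describes the sequence and is not a site of binding.

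Ligands and receptors of ductal branching gave a mixed picture. Over all genes, 49.2% were above the limit. Of the receptors, 28 of 33 were above the limit, led by Met, the receptor of hepatocyte growth factor (9.19 ± 0.00), the Wnt co-receptor Lrp6 (8.61 ± 0.08), the netrin receptor Neo1 (8.16 ± 0.10), Erbb3 (8.15 ± 0.13), Fgfr2 (8.08 ± 0.09), which ductal growth requires, and the EGF receptor Egfr (7.99, 8.34 and 7.69). Ddr2, a collagen receptor, varied most, at 6.66, 7.41 and 6.21. Of the ligands, 22 of 32 were above. Hbegf (8.99 ± 0.02), a ligand of the EGF receptor, and Inhba (8.65, 8.49 and 9.10), the activin A chain, led them. Ereg and Epgn, also of the EGF family, read less evenly than Hbegf, at 7.83, 7.94 and 6.97 and at 7.84, 7.20 and 7.32. The measured family members Egf, Tgfa and Btc are not described here. The stromal ligand Fgf7 was at 6.26, 7.29 and 6.21, apart upward on wild type 2, while Hgf (4.08, 4.64 and 3.76) and Fgf10 (3.64 ± 0.03), further ligands of the stroma, had means under the limit.

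The protease targeted in this study was itself among the higher and less steady genes of the baseline. Mmp14, a membrane-anchored metalloproteinase, read 8.15, 8.67 and 7.75, at rank 1492. Adam10, a sheddase, stood at 9.37 ± 0.06, and the inhibitors Timp2 and Timp3 at 9.23 ± 0.09 and 9.16 ± 0.34. Mmp2, a gelatinase, read 7.85, 8.41 and 7.70, Mmp3, stromelysin 1, 7.78, 8.47 and 7.16, and Mmp19 6.93, 7.40 and 6.48. Mmp14, Mmp2, Mmp3, Mmp19 and Timp3 (9.09, 9.53 and 8.85) had the order wild type 2, then 1, then 3, and were picked for it from the list. Of its 23 measured genes, wild type 2 was strictly highest for 12, wild type 1 for 4 and wild type 3 for 4. Over all genes these shares were 24.4%, 21.4% and 26.4%. Macrophage metalloelastase Mmp12 read 5.88, 5.91 and 4.92, and Mmp7 and Mmp9 were under the limit (3.62 ± 0.02 and 3.60 ± 0.00).

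Wild type 2 was also highest through the markers of fibroblasts and the matrix. Of 26 measured fibroblast genes, 25 were above the limit, 8 were among the 1000 highest and 24 were strictly highest on wild type 2. Of all genes, 49.2% were above the limit and 24.4% were strictly highest on wild type 2. The median member lay 0.36 above its 3-array mean on wild type 2, 0.09 below on wild type 1 (-0.09) and 0.24 below on wild type 3 (-0.24). The collagen chain Col1a2 read 10.62, 10.83 and 10.57, the proteoglycans Dcn 10.21, 10.65 and 10.39 and Lum 9.01, 9.57 and 9.04, and Postn, periostin, 10.00, 10.25 and 9.59. The receptor Pdgfra, which defines many stromal fibroblasts, was at 6.86, 7.43 and 6.10, and fibronectin (Fn1) at 9.35, 9.77 and 8.73. Col1a1 (7.87, 8.47 and 8.05) and Col3a1 (8.54, 9.10 and 8.47) were highest there too. Basement membrane genes, made by epithelium and stroma alike, were strictly highest on wild type 2 for 15 of 19, against the same 24.4%, among them the laminin chain Lamc1 (8.74, 9.17 and 8.86) and Nid1, nidogen (7.72, 8.15 and 7.38). In bulk RNA, more cells of a type and more RNA per cell cannot be told apart.

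Vessel genes were likewise highest on wild type 2. Endothelial genes were above the limit for 17 of 19 and strictly highest on wild type 2 for 15, against 49.2% and 24.4% of all genes. Pecam1 and Cdh5, adhesion molecules of endothelium, read 8.35, 8.62 and 8.31 and 8.44, 9.15 and 8.51, Emcn 8.33, 8.60 and 8.07, and the tight junction gene Cldn5 6.44, 6.96 and 6.06. Kdr, a VEGF receptor, read 5.21, 5.37 and 5.21. Lyve1, a hyaluronan receptor of lymphatic endothelium and of some macrophages, stood apart on wild type 2 (5.16, 6.42 and 5.09), as did the pericyte receptor Pdgfrb (5.61, 6.79 and 5.49), while Rgs5, another pericyte gene, was at 9.03, 9.38 and 9.13. Pmp22, a myelin and fibroblast gene, read 7.57, 8.59 and 7.75, and 7 of 9 measured Schwann and nerve genes were strictly highest on wild type 2, against 24.4% of all genes. Of the 9, 4 were above the limit. Their defining factor Sox10, also a member of the progenitor list, was under the limit at 4.24 ± 0.18.

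**Figure D3:**
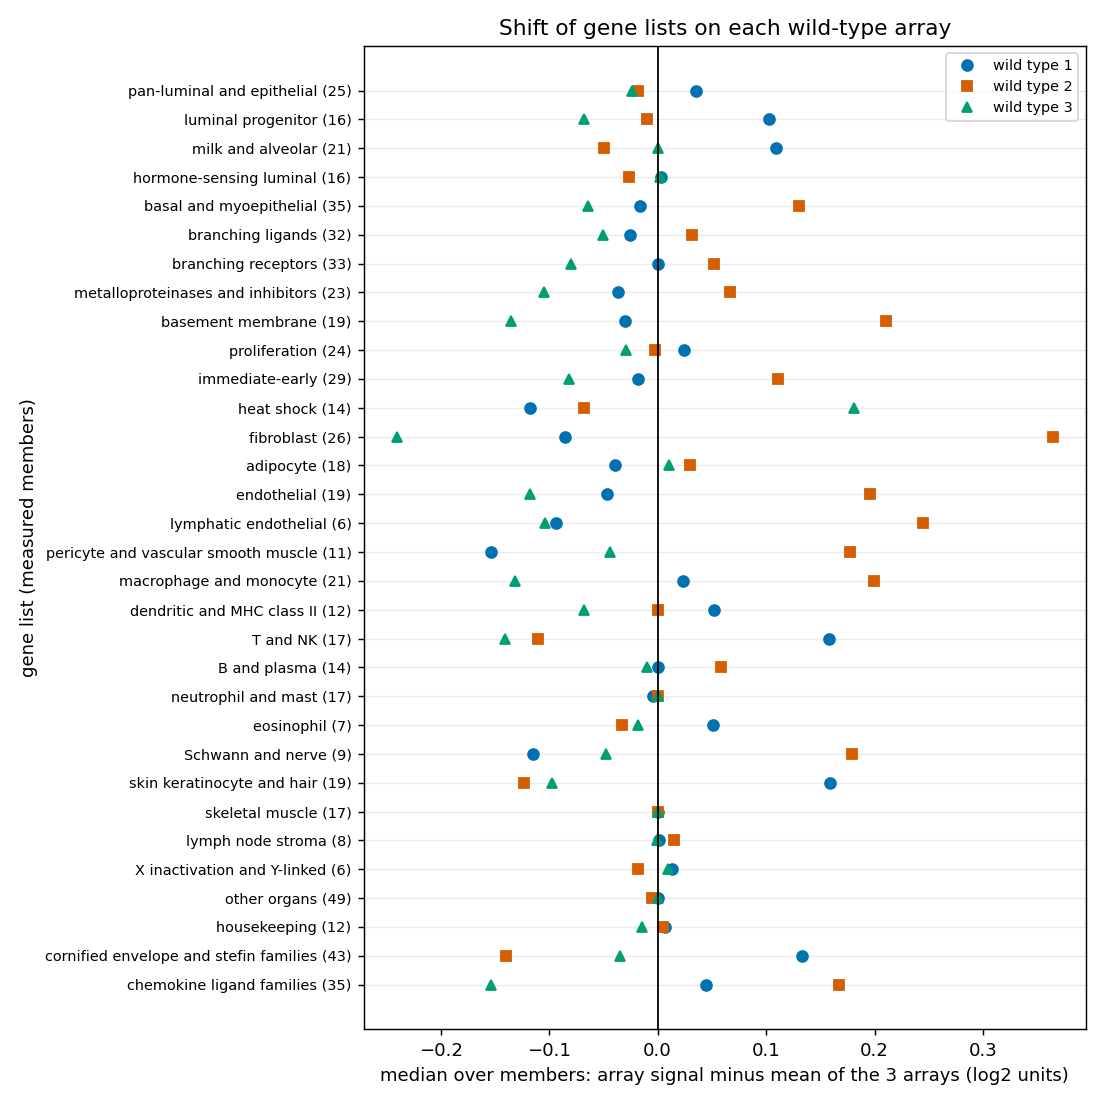
Median over the members of each gene list of the array signal minus the mean of the 3 arrays (log2 units), with the number of measured members in brackets. Lists of stromal and vascular genes lie to the right on wild type 2 (fibroblast at 0.36), heat shock genes on wild type 3 (0.18), and skin and T cell genes on wild type 1 (0.16 each).

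Adipocyte genes had no uniform order. Of 18 measured, 13 were above the limit and 8 strictly highest on wild type 2, against 49.2% and 24.4% of all genes. Yet the defining adipokine Adipoq was at 4.65, 4.54 and 4.77, near the limit. The lipid droplet gene Plin1 and leptin (Lep) were under it at 4.09 ± 0.01 and 3.50 ± 0.06. Lpl, lipoprotein lipase, read 6.59, 6.94 and 6.26, and Scd1, a fatty acid desaturase, 7.25, 7.44 and 6.61. Car3, a carbonic anhydrase abundant in fat, was low on wild type 1, at 5.51, 7.14 and 6.86. It was the only gene of all 22180 (0.00451%) for which wild type 1 stood apart downward by 1 unit or more.

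Of the immune cells, macrophages were the most visible. Of 21 measured genes, 16 were above the limit, against 49.2% of all genes. None was strictly highest on wild type 3, where that held for 26.4% of all genes. Cd68, a lysosomal protein, read 7.32, 7.60 and 7.27, Lyz2, lysozyme, 7.86, 7.88 and 6.85, Ctss, cathepsin S, 7.01, 7.26 and 5.96, and Tyrobp, a signalling adaptor, 7.55, 7.40 and 6.44. The defining receptors Csf1r and Adgre1 were only just above the limit at 4.92 ± 0.14 and 4.61 ± 0.35. The MHC class II gene H2-Ab1 was at 6.61, 6.77 and 5.64. Timd4 (4.30, 6.08 and 3.78), a phosphatidylserine receptor of resident macrophages, and Spic (5.42, 6.57 and 4.75), a macrophage transcription factor, were highest on wild type 2.

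Most T and NK genes were highest on wild type 1. Of 17 measured, 12 were strictly highest there, against 21.4% of all genes, and 4 (23.5%) had a range of 1 unit or more, against 0.762%. Their share above the limit, 7 of 17, was near the 49.2% of all genes, and 6 of the 12 had a mean above it. The T cell receptor chains Cd3g and Cd3e read 5.66, 4.15 and 4.25 and 5.44, 4.63 and 4.63, Cd3d 5.38, 4.51 and 4.33, and the cytokine receptor Il7r 6.04, 5.14 and 4.54. Cd4 and Cd8a were under the limit (3.87 ± 0.18 and 4.22 ± 0.10), and so were the cytotoxic gene Gzmb (3.66 ± 0.07) and the NK receptor Ncr1 (3.76 ± 0.11). Ptprc, CD45 of all leukocytes, read 6.73, 5.87 and 5.34, and the leukocyte tetraspanin Cd53 7.24, 6.25 and 5.31. Of 14 B and plasma genes only 4 exceeded the limit. These included Sdc1 (10.01 ± 0.00) and Xbp1 (7.03 ± 0.09), which epithelium also expresses, while the B cell gene Ms4a1 was at 3.82 ± 0.29 and Jchain at 2.88 ± 0.08. Ighm, the IgM heavy chain, read 6.71, 6.81 and 5.29.

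Few other cell types were visible. None of 7 eosinophil genes and 3 of 17 neutrophil and mast cell genes were above the limit, against 49.2% of all genes. S100a8, a neutrophil and keratinocyte calprotectin chain, read 8.19, 7.91 and 6.80, whereas its partner S100a9 was steady (6.12, 6.12 and 6.23). Of 17 skeletal muscle genes 4 were above, with means up to 6.01. Creatine kinase Ckm (3.67 ± 0.08) and the fast myosin Myh4 (2.75 ± 0.21) were under the limit. Haemoglobin probe sets carry several symbols and were not analysed here. The labels used here give no sex. Xist, the RNA that silences an X chromosome in female cells, read 10.75, 10.75 and 10.77, and the 5 measured Y-linked genes had means from 2.49 (Usp9y) to 3.92 (Sry), all under the limit.

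Of the 169 genes with a range of at least 1 unit, 131 also met the naming rule, which asks for a highest array above the reference limit and leaves out gene models, small RNAs, receptor families and antigen receptor segments. Wild type 2 was the highest array for 68 of these, wild type 1 for 56 and wild type 3 for 7, and wild type 3 was the lowest for 96. Over all genes, 24.4%, 21.4% and 26.4% were strictly highest on wild type 2, 1 and 3, and 25.2% strictly lowest on wild type 3. The 131 were picked by their range and highest array, so these shares give scale only. Of the 25 most variable genes, 17 were those in which wild type 1 stood apart upward, and 13 belonged to the skin or cornified envelope lists. These lists hold 19 and 43 of the 22180 genes. The cornified envelope list was added after these values had been seen. The naming rule also admits a gene through its highest array alone. Krtdap, Krt1, Lce1f, Lce3f and others of the 17 were under the limit on wild type 2 and 3 and entered through wild type 1. The counts of 17 and 13 are therefore descriptions and no independent support.

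**Figure D4:**
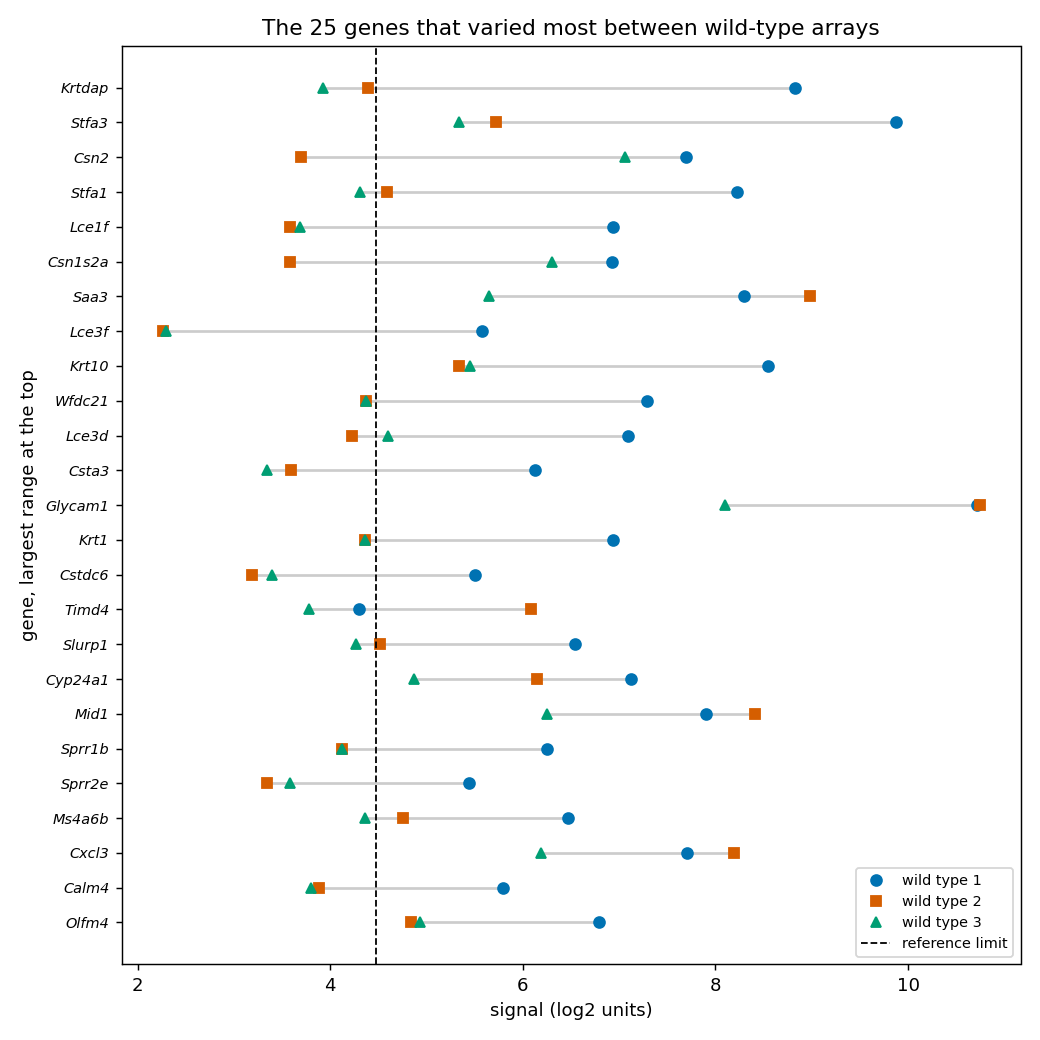
Signals (log2 units) of the 25 genes with the largest range over the wild-type arrays, 1 symbol per array, a grey line from the lowest to the highest, and the reference limit dashed. Wild type 1 is alone on the right for 17 genes, from Krtdap (8.83 against 4.40 and 3.93) to Olfm4 (6.79 against 4.84 and 4.93).

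Wild type 1 had the highest signals for genes of the cornifying epidermis. Krtdap, a keratinocyte differentiation protein, had the largest range of the genes under this rule and read 8.83, 4.40 and 3.93. Krt10 and Krt1, the keratin pair of suprabasal epidermis, read 8.54, 5.34 and 5.45 and 6.94, 4.36 and 4.36. The stefins Stfa3 and Stfa1, intracellular protease inhibitors, read 9.87, 5.73 and 5.33 and 8.23, 4.59 and 4.30, and the late cornified envelope genes Lce1f and Lce3f 6.93, 3.58 and 3.68 and 5.58, 2.26 and 2.29. Of 43 genes of the cornified envelope and stefin families, a set added after the values had been seen, only 11 (25.6%) had a mean above the limit, so most read as background over the 3 arrays. Wild type 1 was strictly highest for 27 of the 43, against 21.4% of all genes, and 9 of these 27 had a mean above the limit. A range of 1 unit or more was found in 11 (25.6%), against 0.762% of all genes. In 10 of the 43 wild type 1 stood apart by that much. Over all genes, 32 (0.144%) stood apart upward on wild type 1. Because the families were picked with these values known, the shares over all genes give scale only and no test of the set.

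Of 19 measured skin and hair genes, 6 were above the limit and 12 strictly highest on wild type 1, and those 6 were among these 12. Over all genes, 49.2% were above and 21.4% strictly highest on wild type 1. Wild type 3 was strictly highest for 5 and wild type 2 for 1, all under the limit, among them the epidermal keratin Krt2 (3.03, 3.17 and 3.26) and the desmosomal Dsg1a (3.98, 4.46 and 3.95). Loricrin (Lor), the main envelope protein, read 4.20, 3.50 and 3.70, filaggrin (Flg) 4.12, 3.40 and 3.40, and the hair follicle keratin Krt71 3.57, 3.33 and 3.33, all highest on wild type 1 but under the limit. Sbsn, suprabasin, was high on every array (7.95, 7.30 and 7.01), as was Sprr1a, a cornified envelope precursor (10.53, 9.82 and 10.11). Calm4, a calmodulin-like epidermal protein, read 5.79, 3.88 and 3.80, Slurp1, a secreted keratinocyte protein, 6.55, 4.52 and 4.26, and Olfm4, a secreted glycoprotein, 6.79, 4.84 and 4.93. The basal keratin Krt14, shared by epidermis and mammary epithelium, differed by only 0.29 over the arrays and was highest on wild type 2. The T cell genes above were also highest on wild type 1, and whether their difference and that of the skin genes have a common source was not tested.

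Wild type 3 was lowest for several chemokine and myeloid genes. Saa3, an acute-phase protein, read 8.30, 8.98 and 5.65, the neutrophil attractants Cxcl3 and Cxcl5 7.71, 8.19 and 6.19 and 8.04, 8.67 and 6.79, and Lilrb4a, an inhibitory receptor of myeloid cells, 7.72, 7.59 and 6.21. Klk10, a secreted kallikrein, read 9.49, 9.38 and 7.94, and Mid1, a microtubule-bound ubiquitin ligase, 7.90, 8.41 and 6.25. Over all genes, 20 (0.0902%) stood apart downward on wild type 3 by 1 unit or more. Of 35 chemokine ligand genes, also grouped after their values had been seen, 27 were above the limit, against 49.2% of all genes. Wild type 3 was strictly lowest for 20 of them, against 25.2% of all genes, and stood apart by 1 unit or more in 5. Wild type 2 was strictly highest for 21, against 24.4%, and 11 (31.4%) had a range of 1 unit or more, against 0.762%. As this set too was grouped with its values known, these shares give scale only and no test. The monocyte attractant Ccl2 was at 10.77, 11.17 and 10.40, Cxcl1 at 9.65, 9.94 and 9.29, Cxcl2 at 9.86, 10.26 and 9.21, Ccl7 at 8.92, 9.66 and 8.65 and Ccl3 at 6.45, 6.90 and 5.31. Cxcl16 was steady, at 9.13 ± 0.01.

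In the opposite direction, wild type 3 had the highest signals for heat shock genes. Hsph1, a nucleotide exchange factor for HSP70, read 7.79, 7.97 and 9.05, the inducible HSP70 genes Hspa1a and Hspa1b 9.92, 9.86 and 10.62 and 10.80, 10.63 and 11.21, and the mitochondrial chaperonin Hspd1 9.79, 9.87 and 10.31. Chordc1, an HSP90 co-chaperone, read 8.62, 8.23 and 9.41. All 14 measured heat shock genes were above the limit, against 49.2% of all genes. Of these, 12 were strictly highest on wild type 3, where that held for 26.4% of all genes. Bag3 (8.94, 9.36 and 9.30) and Hspa5 of the endoplasmic reticulum (9.03 ± 0.04) were the 2 exceptions. Over all genes, 6 (0.0271%) stood apart upward on wild type 3 by 1 unit or more, and 8 (0.0361%) on wild type 2.

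Immediate-early genes, which respond within minutes to growth factors and to tissue dissociation, were high on every array. All 29 measured were above the limit, against 49.2% of all genes, and 12 were among the 1000 highest genes. Ier3 stood at 10.22 ± 0.11, the mRNA-destabilising Zfp36 at 10.18 ± 0.08, Ccn1 at 10.13 ± 0.06, Atf3 at 10.11 ± 0.09 and Myc at 9.86 ± 0.13. Wild type 2 was strictly highest for 18 of the 29, against 24.4% of all genes, including Egr1 (9.07, 9.49 and 9.10) and Jund (8.90, 9.35 and 8.77). Of 24 measured proliferation genes, 22 were above the limit, against the same 49.2%. Their median range was 0.095, against 0.115 over all genes and 0.234 over the immediate-early genes. Strictly highest on wild type 1 were 13 of the 24, against 21.4% of all genes, with the median member 0.02 above its 3-array mean. Mki67, the mark of cycling cells, read 6.65, 6.70 and 6.65, Top2a 6.54, 6.52 and 6.52 and the replication clamp Pcna 9.92, 9.79 and 9.74. Housekeeping genes differed little, with Gapdh at 10.60 ± 0.07 and Hprt at 7.81 ± 0.08, although Actb read 8.25, 8.25 and 7.95.

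**Figure D5:**
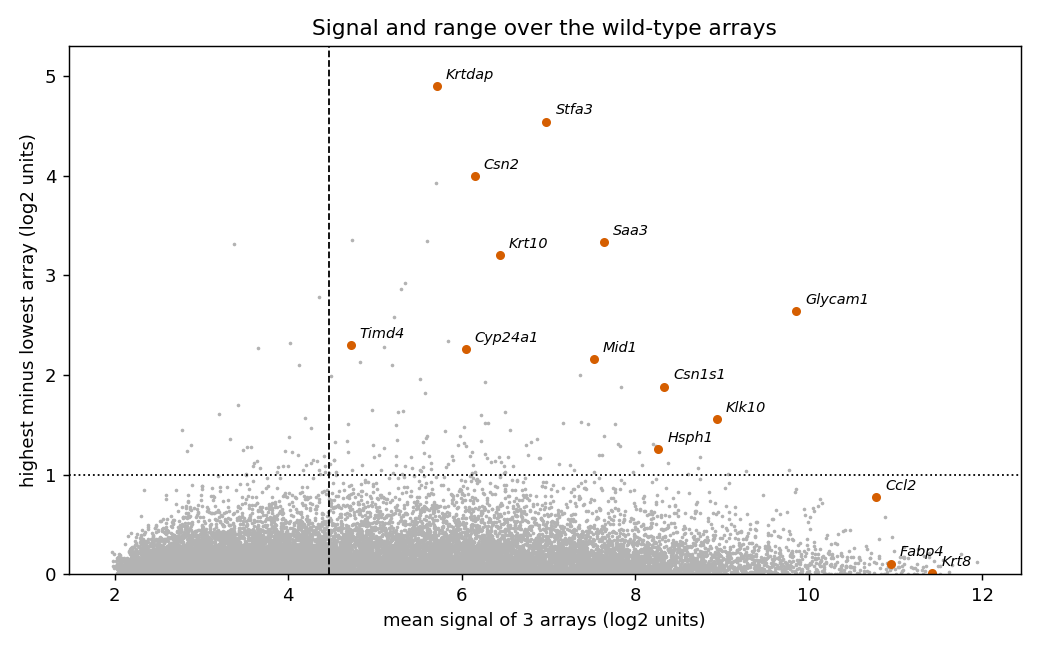
Highest minus lowest wild-type array (log2 units) against the mean signal (log2 units), 1 point per gene, with a dotted line at 1 unit, a dashed line at the reference limit and named genes in orange. Most genes lie near 0, and Krtdap, Stfa3, Csn2, Saa3 and Glycam1 stand far above the dotted line.

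The spread was largest at middle signals. The median SD was 0.064 in the decile of genes with the highest means, 0.082 in the fourth decile, with means from 5.11 to 5.87, and 0.049 in the lowest decile. The lowest decile held 0 genes with a range of 1 unit or more, the highest held 20 and the fourth 36. Of all genes, 17062 (76.9%) had a range under 0.25 units.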

How the data were processed

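The deposited table holds log2 signals of 41345 probe sets. The submitters' processing notes name RMA, which corrects background, normalises quantiles and summarises probes, and limma, without versions. No source used here gives the authors' probe-set library or genome build. The platform annotation names 1 symbol for 23521 probe sets and several for 1814, and does not list 16010. Per gene, the probe set with the highest mean over the 3 wild-type arrays was kept (22180 genes, 1082 with a choice). Symbols were checked through gene IDs in RefSeq's GRCm38.p6 table, where 23328 probe sets matched.

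Means, SDs, ranges and ranks were computed with pandas 2.3.3 in Python 3.11.15. The step that finds an array standing apart was tested on simulated data. An array stands apart when its distance to the nearer other array exceeds the distance between those 2. The members and gene lists were chosen with earlier results of these data known. Named genes follow a rule: the 30 highest, the 20 highest outside abundant families, lineage markers, up to 6 highest and 4 widest members per list, the 25 widest genes, and 8 per array and direction. Not all are named. Genes named outside it (Krt2, Dsg1a, Wnt4, Tagln, Pigr, Fgf10, Mmp7, Mmp9, Ptprc, Cd53, Gzmb, Ncr1, Flg, Bag3, Hspa5, Egr1, Cr2 and Fcer2a) were chosen after their values were seen.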

Additional observations from a re-analysis of the deposited data

How the results depend on the processing

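Counts of genes above the reference limit, ribosomal protein genes among the 100 highest, genes in which an array stood apart and genes with a range of 1 unit or more stayed within 1.5 times the reported count under quantile normalisation, median centring and averaging over all probe sets of a gene. Above the 99th percentile of the receptor genes, in place of the 95th, lay 6349 genes instead of 10921. With 1 array left out, genes with a range of 1 unit or more numbered 61 (without wild type 3) to 96 (without wild type 1), instead of 169. For the same probe set, a range over 2 arrays cannot exceed that over 3. The median SD was 0.0408 to 0.0460 instead of 0.0630, and the reason for this was not tested. Genes with 3 different values had a median SD of 0.102. The skin and hair shift on wild type 1, a median of 0.16, was 0.54 as a mean over members and 1.51 as a median over members above the limit. The milk gene shift on wild type 2, -0.05 as a median, was -0.26 as a mean. Of 40 alternative list shifts, 1 changed sign, that of proliferation on wild type 2 with median centring (0.02 instead of 0.00). No paired analysis was possible because only 1 group is described and no result comes from a test. Without detection calls, the lowest signals are not separable from background, and 3 arrays limit the precision.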
